A study of Mus musculus with 2 samples.

Results

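The complement genes described here are 9 named genes of the mouse complement system, C1qa, C1qb, C1qc, C1ra, C1s1, C4b, C3, C3ar1 and C5ar1, out of 32285 genes counted in single cells of plantaris muscle. They were chosen by name, and all 9 were found in both count tables by their Ensembl identifiers. The study compared muscle 4 days after tenotomy, the surgical cutting of a tendon, with the sham control muscle of the opposite side. The animals were 5 male C57BL/6 mice, 12 weeks old, and the 5 plantaris muscles of each kind were pooled before digestion with collagenase. Living mononuclear cells, taken by sorting for Calcein AM stain and absence of propidium iodide, gave 1 droplet library of 3-prime counts per pool, so the sham group is 1 library and the tenotomy group is 1 library. Both groups come from the same animals, and the labels give no other treatment or allele. The sources used here do not say which tendon it was.

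Complement is a cascade of blood and tissue proteins that marks microbes, dead cells and debris for removal and calls in immune cells. In the classical pathway the recognition molecule C1q, built from A, B and C chains, carries the proteases C1r and C1s, which cleave C4 and C2. The cleavage of C3 that follows gives fragments that coat surfaces and the small peptide C3a, and C3a and the later peptide C5a act on receptors of myeloid cells. Tissue macrophages are known as a main source of C1q, while fibroblasts of connective tissue can make C3, C1r and C1s.

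With 1 pooled library per group, no test between groups was possible, and the treatment and the library cannot be told apart. All intervals below are exact 95% intervals and cover counting error only. A level is given as CPM, the unique molecular identifiers (UMIs) of a gene in 1000000 UMIs of the cells named. A gene was called measured in a cell class when its level in the higher library reached 50 CPM, 25 UMIs and 10% of the level over all kept cells. A gene under this limit in 1 library could thus be counted through the other. It was called higher or lower when the levels were at least 2-fold apart. Levels are compared between cells and libraries for 1 gene at a time, since 3-prime counts of different genes were not set on a common scale.

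The sham library held 8463 barcodes with 47781353 UMIs and the tenotomy library 11950 barcodes with 94556283 UMIs. Of these, 7548 sham cells (median 4851 UMIs) and 10917 tenotomy cells (median 5859 UMIs) passed the filters, and 29 barcodes kept in both libraries were shared. Clustering without the complement genes gave 33 clusters, which fixed marker lists placed into 12 named classes. Of these, 8 classes held at least 50 cells in each library. Another 8 clusters, with 805 sham cells (10.7%) and 422 tenotomy cells (3.87%), stayed unnamed. The muscle origin showed in muscle stem cell-like cells, 517 in sham and 524 in tenotomy. These were not alike, since 409 of the tenotomy cells and 6 of the sham cells lay in a cluster led by Ttn, Des and Myog. Macrophage-like cells were 273 in sham (3.62% of cells) and 4550 in tenotomy (41.7%). Mesenchymal progenitor-like cells, the connective tissue fibroblasts of muscle, were 1930 and 1859.

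The C1q chain genes lie side by side on the minus strand of chromosome 4, at chr4:136895917-136898803 for C1qa, chr4:136889804-136893065 for C1qc and chr4:136880129-136886187 for C1qb on mm10. The protease genes C1ra (chr6:124512405-124523443, plus strand) and C1s1 (chr6:124530345-124542359, minus strand) are neighbours on chromosome 6, where the C3a receptor gene C3ar1 (chr6:122847138-122856161, minus strand) also lies. C3 (chr17:57203970-57228136) and C4b (chr17:34728380-34743882) are on the minus strand of chromosome 17, and the C5a receptor gene C5ar1 (chr7:16246743-16259540) is on the minus strand of chromosome 7. C4b, C1s1 and C1ra each have a near copy, C4a, C1s2 and C1rb, so a part of their UMIs could belong to the copy. The copies were counted at 15 UMIs of C4a in each library, 6 in sham and 4 in tenotomy of C1s2, and 2 and 1 of C1rb.

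The start regions of 5 of these genes are shown because they belong to the groups the results separate, a C1q pair of macrophages, C3 and C1ra of stromal cells, and the near copy C1rb that was almost not counted. Each runs from 250 bases before to 50 bases after the start that RefSeq gives the gene on GRCm38.p6, 5′ to 3′ on the coding strand. These starts can differ from those of the GENCODE positions above, as they do for C1ra and C1qc. Capitals mark matches to a PU.1 motif (GAGGAAG), a STAT motif (TTCNNNGAA) and a C/EBP motif (TTGCNNAA), searched on both strands. An interferon response motif (GAAA, NN and GAAA in a row) and an NF-kB motif (GGG, 5 bases of any kind, CC), found in 3.44% and 50.8% of 32851 windows, were searched too and are not marked. The windows are chr4:136886151-136886450 for C1qb, chr4:136892865-136893164 for C1qc, chr17:57228087-57228386 for C3, chr6:124512371-124512670 for C1ra and chr6:124570180-124570479 for C1rb.
C1qb: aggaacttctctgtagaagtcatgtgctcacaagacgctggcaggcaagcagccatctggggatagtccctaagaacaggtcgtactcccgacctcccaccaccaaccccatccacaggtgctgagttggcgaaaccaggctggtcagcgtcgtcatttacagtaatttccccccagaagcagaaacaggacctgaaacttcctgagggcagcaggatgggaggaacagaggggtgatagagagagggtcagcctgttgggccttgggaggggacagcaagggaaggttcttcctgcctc
C1qc: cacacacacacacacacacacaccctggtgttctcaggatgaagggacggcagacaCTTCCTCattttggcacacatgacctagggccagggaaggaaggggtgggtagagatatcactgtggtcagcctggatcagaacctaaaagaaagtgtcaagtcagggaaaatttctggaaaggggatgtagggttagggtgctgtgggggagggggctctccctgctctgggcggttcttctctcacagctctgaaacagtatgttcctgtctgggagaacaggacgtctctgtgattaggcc
C3: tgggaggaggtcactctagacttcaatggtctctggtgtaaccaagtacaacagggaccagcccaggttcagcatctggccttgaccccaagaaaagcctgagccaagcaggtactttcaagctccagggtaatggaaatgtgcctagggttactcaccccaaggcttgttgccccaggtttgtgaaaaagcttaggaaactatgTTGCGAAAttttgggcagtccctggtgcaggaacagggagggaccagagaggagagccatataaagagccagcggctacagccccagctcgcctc
C1ra: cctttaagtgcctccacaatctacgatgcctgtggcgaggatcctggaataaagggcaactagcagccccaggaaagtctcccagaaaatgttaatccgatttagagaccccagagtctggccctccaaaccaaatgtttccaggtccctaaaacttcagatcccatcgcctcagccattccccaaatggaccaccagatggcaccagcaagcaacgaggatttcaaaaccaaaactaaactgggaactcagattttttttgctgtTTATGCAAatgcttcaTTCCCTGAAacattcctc
C1rb: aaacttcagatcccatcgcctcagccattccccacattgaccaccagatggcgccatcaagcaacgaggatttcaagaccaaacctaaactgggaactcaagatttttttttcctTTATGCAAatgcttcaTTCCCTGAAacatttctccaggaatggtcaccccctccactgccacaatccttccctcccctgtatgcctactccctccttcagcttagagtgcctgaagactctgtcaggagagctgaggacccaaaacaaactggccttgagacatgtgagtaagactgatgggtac

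The C1qc window held 1 PU.1 match and the C1qb window held none of the 3 motifs. PU.1 matches stood in 13.6% of 32851 promoter windows of the same length. The C3 window held 1 C/EBP match, a motif found in 10.8% of all windows. C1ra and C1rb each held 1 C/EBP and 1 STAT match, the latter present in 8.30% of all windows, and their windows shared an identical run of 34 bases. C1ra gave 4938 UMIs in sham and 2281 in tenotomy against the 2 and 1 of C1rb. A match of letters is a description of the window, and binding of these factors was not measured.

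The recognition chains were the genes of macrophage-like cells. Over all kept cells, C1qa was at 256 CPM in sham against 1033 CPM in tenotomy, C1qb at 236 and 1112 CPM, and C1qc at 167 and 537 CPM. Of the UMIs of the 3 chains together, 29176 in sham and 238571 in tenotomy, macrophage-like cells held 69.4% (68.8% to 69.9%) and 94.3% (94.2% to 94.4%). Without doublet removal, which left 69 sham cells in this class, the shares were 15.01% and 89.7%. Both receptor genes lay in the same cells, with 77.1% of sham and 94.6% of tenotomy C3ar1 UMIs and 63.4% and 89.3% of C5ar1 UMIs. C5ar1 was also found in neutrophil-like cells, which held 13.6% of its UMIs in sham and 5.18% in tenotomy.

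C1q outside the named macrophages was mostly in unnamed clusters in sham, which held 25.7% of its C1q UMIs and 0.95% of those in tenotomy. The largest of these clusters held 435 sham barcodes and 1 tenotomy barcode at a median of 1424 UMIs, with 0.355% mitochondrial UMIs at the median. Its leading genes were the fibroblast genes Apod, Myoc, Gsn and Smoc2, and it carried C1qa at 1467 CPM beside C3 at 256 CPM in its sham barcodes. Genes of macrophages and of fibroblasts therefore stood together in these shallow barcodes, and whether a barcode held 1 cell was not tested.

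**Figure D1:**
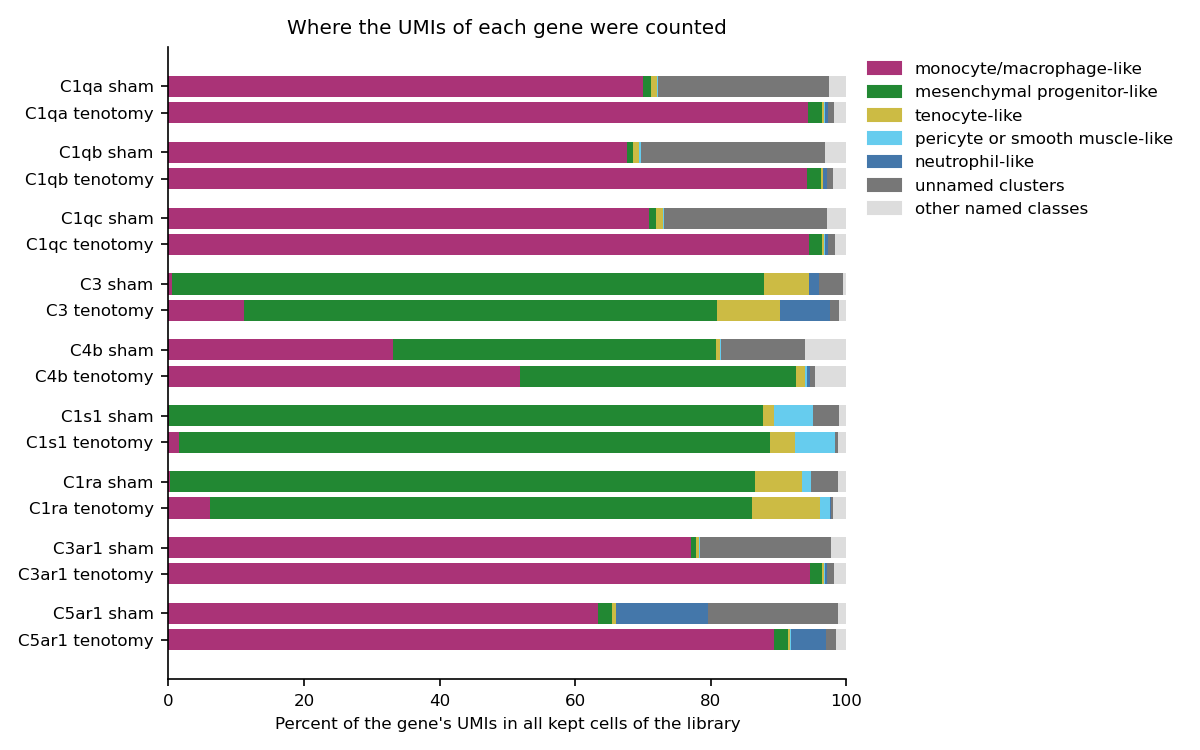
Share of the UMIs of each complement gene (horizontal axis, percent of all kept cells of the library) that lay in each cell class (colours), 1 bar for each gene and library. C1q chains and receptors lie mainly in macrophage-like cells (94.3% of C1q UMIs in tenotomy), C3, C1s1 and C1ra mainly in mesenchymal progenitor-like cells, and C4b is divided between both.

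The stromal genes had the opposite origin. Of the UMIs of C3, C4b, C1s1 and C1ra together, 28092 in sham and 18801 in tenotomy, mesenchymal progenitor-like cells held 85.8% (85.4% to 86.3%) and 71.9% (71.3% to 72.6%). C1s1 was the most steady in origin, with 87.6% and 87.0% of its UMIs in mesenchymal cells. For C3 the mesenchymal share was 87.3% in sham and 69.8% in tenotomy, where macrophage-like cells held 11.1%, tenocyte-like cells 9.21% and neutrophil-like cells 7.36%. C4b stood between the groups, with 47.6% and 40.8% of its UMIs in mesenchymal cells and 33.1% and 51.8% in macrophage-like cells.

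**Figure D2:**
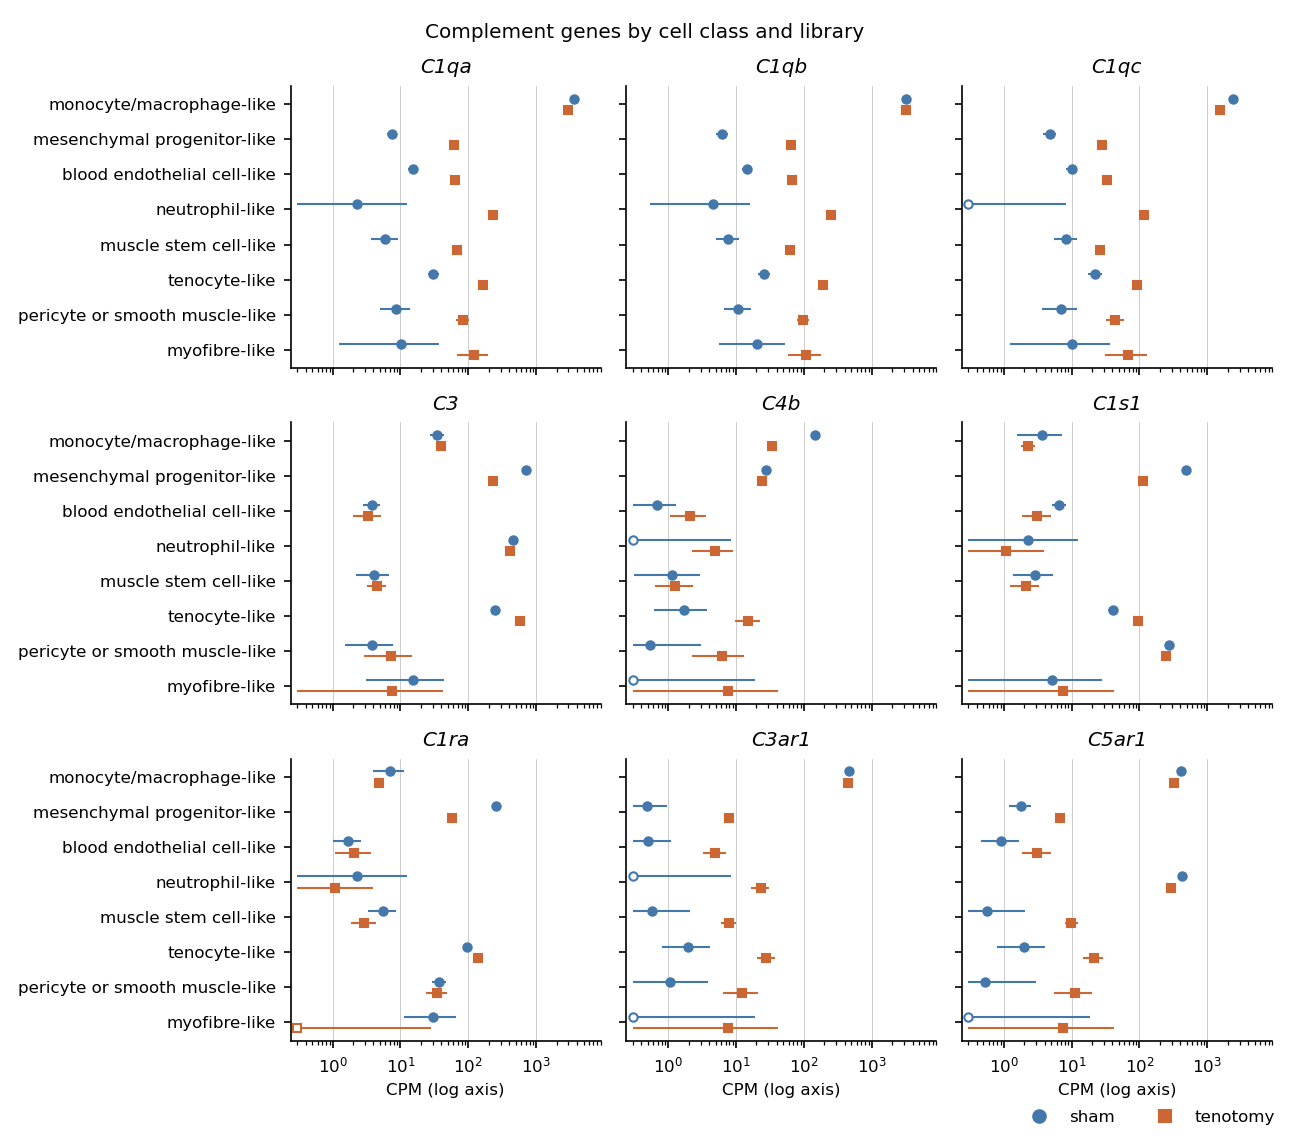
Level of each complement gene (horizontal axis, CPM on a log scale) in each compared cell class (vertical axis) for the sham library (circles) and the tenotomy library (squares), with exact 95% Poisson intervals as lines and levels under 0.3 CPM drawn open at 0.3. C1q chains stand at 1537 CPM or more in macrophage-like cells of both libraries, while C3 is lower in mesenchymal cells and higher in tenocyte-like cells after tenotomy.

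Within macrophage-like cells the C1q chains and both receptors were within 2-fold of each other in the 2 libraries, while C4b was lower in tenotomy. C1qa was at 3662 CPM (3582 to 3743) in sham and 2949 CPM (2929 to 2969) in tenotomy, a level 1.24-fold lower. C1qb was at 3254 and 3170 CPM, 1.03-fold apart. C1qc showed the widest gap of the chains, at 2417 and 1537 CPM or 1.57-fold lower in tenotomy. The receptors C3ar1, at 465 and 445 CPM, and C5ar1, at 404 and 322 CPM, were also within 2-fold.

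C4b, the gene of the C4 protein that activated C1s cleaves, was the 1 member at least 2-fold apart in macrophage-like cells. It was at 146 CPM (130 to 163) in sham and 33.4 CPM (31.4 to 35.6) in tenotomy, 4.36-fold lower (3.83 to 4.95). Of 6 members measured there, 0 were higher, 1 was lower and 5 were within 2-fold, where 6.56% of 3188 measured genes were higher and 7.31% lower. C3 was under the limit for a measured gene in these cells, at 34.6 and 39.8 CPM, as were C1s1 (3.69 and 2.31 CPM) and C1ra (6.92 and 4.77 CPM). Beside these values, all 9 blood endothelial markers were lower in tenotomy macrophage-like cells, at 338 and 113 CPM summed, and all 6 erythroid markers higher, at 6.9 and 44.3 CPM, with 4 of them at 0 in sham. Their part in the result was not tested.

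The share of macrophage-like cells with a UMI gave the same order of libraries. C1qa was found in 89.4% of sham and 81.2% of tenotomy cells, C1qb in 90.1% and 84.4%, and C1qc in 90.5% and 79.8%. Median depth differed between these cells, at 7327 UMIs in sham and 6032.5 in tenotomy. With each cell thinned to 1000 UMIs, the shares were 85.7% and 69.5% for C1qa, 85.7% and 74.2% for C1qb, and 79.4% and 59.0% for C1qc. All 3 chains were seen in 204 of 272 thinned sham cells (75.0%) and 2169 of 4417 tenotomy cells (49.1%), and none of them in 31 (11.4%) and 776 (17.6%). C4b was found in 40.3% and 9.08% of cells, and in 13.6% and 2.67% after thinning. The receptors were nearer to each other, at 37.1% and 33.7% for C3ar1 and 30.1% and 26.4% for C5ar1 after thinning.

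Different clusters made up the macrophage class in the 2 libraries. Cluster 13, led by Ccl4, Folr2 and Cd163, held 200 of the 273 sham cells and 36 of the 4550 tenotomy cells. In tenotomy most cells lay in cluster 15 (1856 cells, led by Cd74 and H2-Aa), cluster 27 (1341 cells, led by Mrc1, Pf4 and Ccl8) and cluster 32 (996 cells, led by Spp1, Gpnmb and Fabp5). Those held 37, 19 and 0 sham cells. Cluster 28, led by the monocyte genes Ly6c2 and Plac8, held 17 and 321 cells. No macrophage cluster held 50 cells in each library, so clusters are described by their values and not compared as classes.

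C1q was high in all macrophage clusters but the monocyte-like one. In tenotomy C1qa was at 5022 CPM in cluster 13, 4319 in cluster 27, 2445 in cluster 32, 2438 in cluster 15 and 160 in cluster 28. In sham it was at 4683 CPM in cluster 13, 4903 in cluster 27 and 1510 in cluster 15, while cluster 28 had 0 UMIs of C1qa and C1qb and 1 of C1qc in 17 cells. Cluster 28 had C3 at 356 CPM in sham and, beside some C1q, at 202 CPM in tenotomy, where each other macrophage cluster of either library had 41.0 CPM or less. Its 17 sham cells gave 62 of the 75 C3 UMIs of sham macrophage-like cells.

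C4b was highest in 2 of the clusters. In cluster 13 it was at 222 CPM in sham against 399 CPM in tenotomy, and in cluster 27 at 73.7 and 72.5 CPM. In cluster 15 it was at 4.4 and 14.1 CPM, in cluster 32 at 7.3 CPM and in cluster 28 at 0 and 1.9 CPM. Without cluster 13, an alternative chosen after seeing these values, C4b was at 19.6 CPM in sham (16 UMIs) and 31.3 CPM in tenotomy, a ratio of 1.60 (0.98 to 2.81). Without the removal of doublets the log2 ratio of C4b was 0.53 in place of -2.12.

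Leaving out cluster 13 also changed the C1q comparison. Over the other 73 sham and 4514 tenotomy cells, C1qa was at 1976 and 2937 CPM, 1.49-fold higher in tenotomy (1.41 to 1.56). C1qb was at 2129 and 3167 CPM, and C1qc at 1385 and 1531 CPM or 1.11-fold higher. Cluster 28, with 1 C1q UMI in its sham cells, made up 17 of these 73 sham cells and 321 of the 4514 tenotomy cells. Inside clusters the direction was mixed, with C1qa lower in tenotomy in cluster 27 and higher in cluster 15. C3ar1 was 1.48-fold higher, at 301 and 444 CPM, and C5ar1 stayed at 337 and 322 CPM. None of these members passed 2-fold upward, and C3, with its sham UMIs mostly in cluster 28, was 2.02-fold lower (80.7 and 40.0 CPM). Of 14 measured complement genes 2 were higher and 1 lower, against 4.9% and 3.94% of 3099 genes.

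The share of C1qc among the 3 chains was lower in tenotomy within 3 clusters. That of C1qa was higher in the same 3 clusters, and that of C1qb in 1 of them. C1qc made up 25.9% of C1q UMIs in sham macrophage-like cells and 20.1% in tenotomy, while C1qb made up 34.9% and 41.4%. Inside clusters the C1qb share was 33.8% and 32.4% in cluster 13, 44.0% and 44.8% in cluster 15, both with overlapping intervals, and 34.4% and 38.7% in cluster 27. In cluster 27 the C1qc share was 27.7% (25.9% to 29.5%) in sham and 20.6% (20.3% to 20.8%) in tenotomy. In cluster 15 it was 22.2% (20.5% to 24.1%) and 19.0% (18.7% to 19.3%), and in cluster 13 it was 26.1% (25.4% to 26.8%) and 23.6% (21.7% to 25.5%). A lower C1qc share in tenotomy was therefore seen in each of these 3 clusters, with intervals that overlap slightly in cluster 13. The C1qa share was 40.2% in sham and 44.1% in tenotomy in cluster 13, and 37.9% and 40.7% in cluster 27. In cluster 15 it was 33.7% (31.7% to 35.8%) and 36.2% (35.9% to 36.6%). Its intervals did not overlap in any of the 3, although over the whole class C1qa made up 39.2% and 38.5%. The chains come from 1 library per group, and a difference between libraries in how well each transcript end was caught was not tested.

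**Figure D3:**
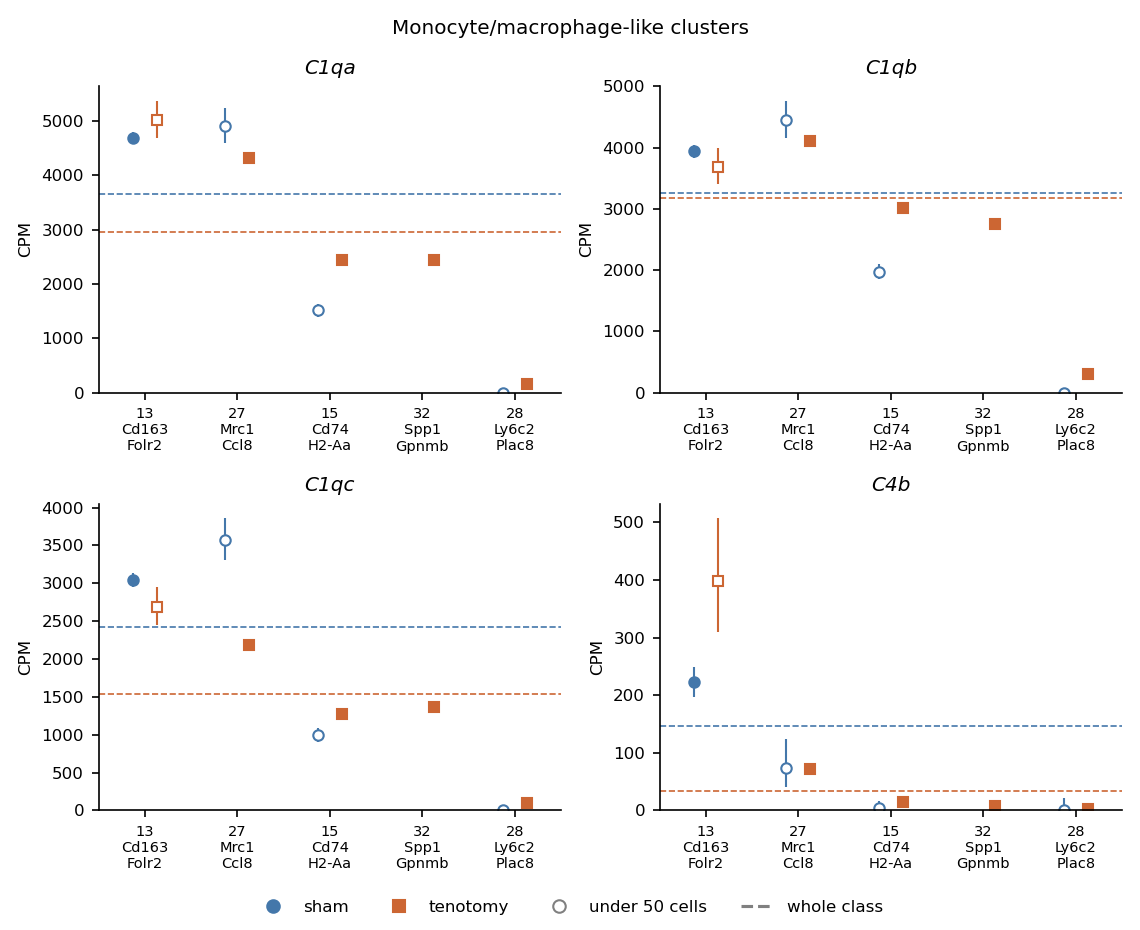
Level of C1qa, C1qb, C1qc and C4b (vertical axis, CPM) in the macrophage-like clusters, each with its number and leading genes, for sham (circles) and tenotomy (squares), with exact 95% Poisson intervals as lines, open symbols for fewer than 50 cells, dashed lines at the level of the whole class and no symbol under 10 cells. C4b is highest in cluster 13 (222 and 399 CPM), and cluster 28 has the least C1q.

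C1q UMIs also appeared in classes outside macrophages, and in the other 7 compared classes at higher levels in the tenotomy library. In mesenchymal cells C1qa was at 7.6 CPM in sham against 60.6 CPM in tenotomy, with a UMI in 6.0% and 42.1% of cells. After thinning these shares were 1.2% and 6.1%, and the median depth before thinning was 8400 and 14364 UMIs. Blood endothelial cell-like cells had C1qa at 15.1 and 62.8 CPM, in 5.4% and 20.7% of cells, or 1.9% and 6.6% after thinning, at a median depth of 3537 and 3119.5 UMIs. Neutrophil-like cells went from 2.2 to 234 CPM, and tenocyte-like cells from 30.6 to 163 CPM. Dendritic cell-like cells, 32 in sham and too few for a comparison, had C1qa at 138 and 110 CPM.

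These levels stood close to those of other macrophage genes in the same classes. In tenotomy mesenchymal cells the 3 chains were at 1.85% to 2.06% of their macrophage level, beside a median of 1.99% for the 11 macrophage markers. In tenotomy neutrophil-like cells the range was 7.69% to 7.92% beside a marker median of 7.69%, and in tenocyte-like cells 5.52% to 6.01% beside 5.54%. Blood endothelial cell-like cells were at 2.13% to 2.15% beside 1.32%. The chain balance was also close to that of macrophages, with 18.7% C1qc in mesenchymal and 19.7% in neutrophil-like cells of the tenotomy library against 20.1%.

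**Figure D4:**
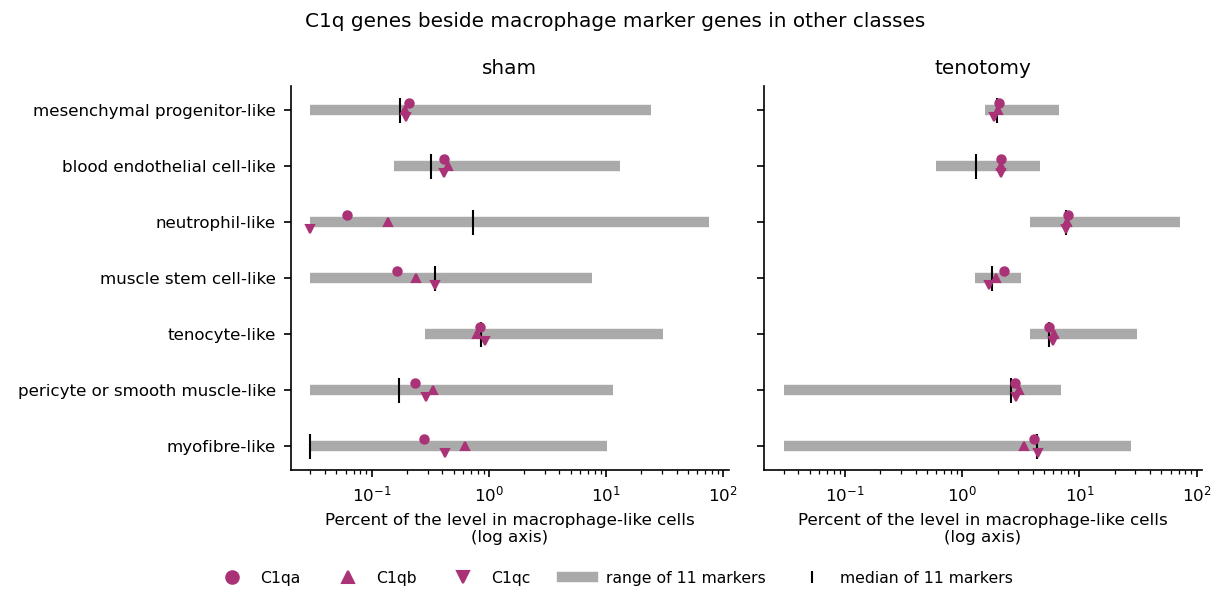
Level of the C1q chains (coloured symbols) in 7 other classes as a percent of their level in macrophage-like cells of the same library (horizontal axis, log scale), beside the range (grey bar) and median (black tick) of 11 macrophage marker genes, with values under 0.03% drawn at 0.03%. In tenotomy the chains stand near the marker median in each class, at 1.69% of the macrophage level or more.

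In mesenchymal progenitor-like cells, all 3 measured members were lower after tenotomy. C3 was at 702 CPM (689 to 715) in sham and 231 CPM (226 to 237) in tenotomy, 3.03-fold lower (2.95 to 3.12). C1s1, the protease that cleaves C4, was at 482 and 113 CPM, 4.24-fold lower (4.08 to 4.42). C1ra, the protease that activates C1s, was at 260 and 57.6 CPM, 4.51-fold lower (4.27 to 4.77). In this class 16.1% of 3554 measured genes were higher and 16.2% lower. C4b was under the limit for a measured gene, at 27.8 and 24.4 CPM.

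Tenotomy mesenchymal cells were also deeper, with a median of 14364 UMIs against 8400 in sham, so levels per cell were less far apart. C3 had 5.96 UMIs per sham cell and 3.94 per tenotomy cell, C1s1 had 4.09 and 1.93, and C1ra 2.21 and 0.98. The lower C3 did not pass 2-fold under each scaling: its log2 ratio was -1.60 from CPM over the class, -0.60 per cell, -0.50 as a mean over cells of CPM and -0.43 after thinning. Per cell C4b was higher in tenotomy, at 0.24 and 0.42 UMIs. The shares of positive cells after thinning were 30.8% and 19.2% for C3, 37.8% and 17.2% for C1s1, 23.3% and 9.26% for C1ra, and 1.51% and 4.38% for C4b. Unthinned, C3 was found in 57.1% and 50.7% of cells, C1s1 in 93.6% and 65.7%, C1ra in 80.7% and 51.1%, and C4b in 6.27% and 14.8%. Macrophage-like cells, which give a background for C1s1 and C1ra, had them at 3.69 and 6.92 CPM in sham. Markers of other cells moved beside these genes: 7 of 9 tenocyte markers were higher in tenotomy mesenchymal cells (105 and 1640 CPM summed), as were 10 of 11 macrophage markers (268 and 408 CPM, with Fcgr1 at 0 in sham), 5 of 9 pericyte or smooth muscle markers (75.6 and 742 CPM) and 10 of 10 neutrophil markers (64.2 and 254 CPM). Their part in the result was not tested.

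The lower levels went with 1 cluster. Cluster 30, led by the matrix genes Postn, Timp1 and Tnc, held 1494 of the 1859 tenotomy cells and 4 of the 1930 sham cells. There C3 was at 153 CPM, C1s1 at 89 CPM, C1ra at 47 CPM and C4b at 16 CPM. The sham cells lay in cluster 6 (1185 cells, led by Gsn and Smoc2), cluster 10 (400 cells, led by Apod and Myoc) and cluster 3 (341 cells, led by Pi16), which held 56, 139 and 170 tenotomy cells. In these 3 clusters, present in both libraries, the stromal members took a different course.

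C3 was higher after tenotomy in 2 of the 3 shared clusters and about level in the one where it was highest. In cluster 6 it was at 497 CPM in sham against 1046 CPM in tenotomy, 2.10-fold higher (1.86 to 2.37), and in cluster 10 at 414 and 839 CPM, 2.03-fold higher (1.83 to 2.24). In cluster 3 it was at 1478 and 1599 CPM, a ratio of 1.08 (1.03 to 1.14). Thinned shares of C3-positive cells were 26.7% and 36.4% in cluster 6, 17.0% and 26.7% in cluster 10, and 61.1% and 56.9% in cluster 3. Median depth was lower in tenotomy in each, for example 10442 and 6970.5 UMIs in cluster 3.

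C4b was higher in 2 of them. In cluster 3 it was at 26 CPM in sham against 161 CPM in tenotomy, 6.23-fold higher (4.84 to 8.06), and in cluster 10 at 35 and 149 CPM, 4.27-fold higher (3.20 to 5.70). Cluster 6 had C4b at 22 and 7 CPM, from 2 UMIs in its 56 tenotomy cells. The proteases stayed within 2-fold in all 3 clusters. C1s1 was at 378 and 343 CPM in cluster 3, 511 and 546 in cluster 6, and 513 and 566 in cluster 10. C1ra was at 224 and 189 CPM, 281 and 262 CPM, and 230 and 179 CPM.

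Without cluster 30, a choice made after seeing these values, 1926 sham and 365 tenotomy mesenchymal cells remained. C3 was then at 698 and 1290 CPM, 1.85-fold higher in tenotomy (1.77 to 1.92), where the whole class had it lower. The mix of clusters differed too, as cluster 3, highest in C3 and with a ratio of 1.08, held 341 of these sham and 170 of these tenotomy cells. C4b was at 24.9 and 138 CPM, 5.54-fold higher (4.76 to 6.45). C1s1 was at 482 and 439 CPM and C1ra at 260 and 195 CPM, ratios of 0.91 and 0.75. Of 14 measured complement genes 3 were higher, 2 lower and 9 within 2-fold, against 4.51% higher and 4.12% lower of 3351 genes. The 3 higher genes were C4b, C2 (16.4 and 65.2 CPM, 3.99-fold) and Cfb (32.4 and 145 CPM, 4.49-fold). They encode the C4 protein and the catalytic subunits of the C3 convertases. Cluster 10, with 400 of these sham and 139 of these tenotomy cells, held 233 of 267 sham and 136 of 143 tenotomy C2 UMIs. Inside it C2 was 2.32-fold higher, at 84.5 and 196 CPM, while cluster 6 had 28 and 0 UMIs. Cfb was 2.45-fold higher in cluster 10, 3.08-fold in cluster 6 and 4.84-fold in cluster 3. The 2 lower genes were C7 of the terminal pathway and the soluble regulator Clu, both at a ratio of 0.49. C4b, C2 and Cfb were under the limit of 50 CPM in sham, and C7 and Clu were under it in tenotomy (30.5 and 27.8 CPM). Each called gene was thus counted through the library where it was high.

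**Figure D5:**
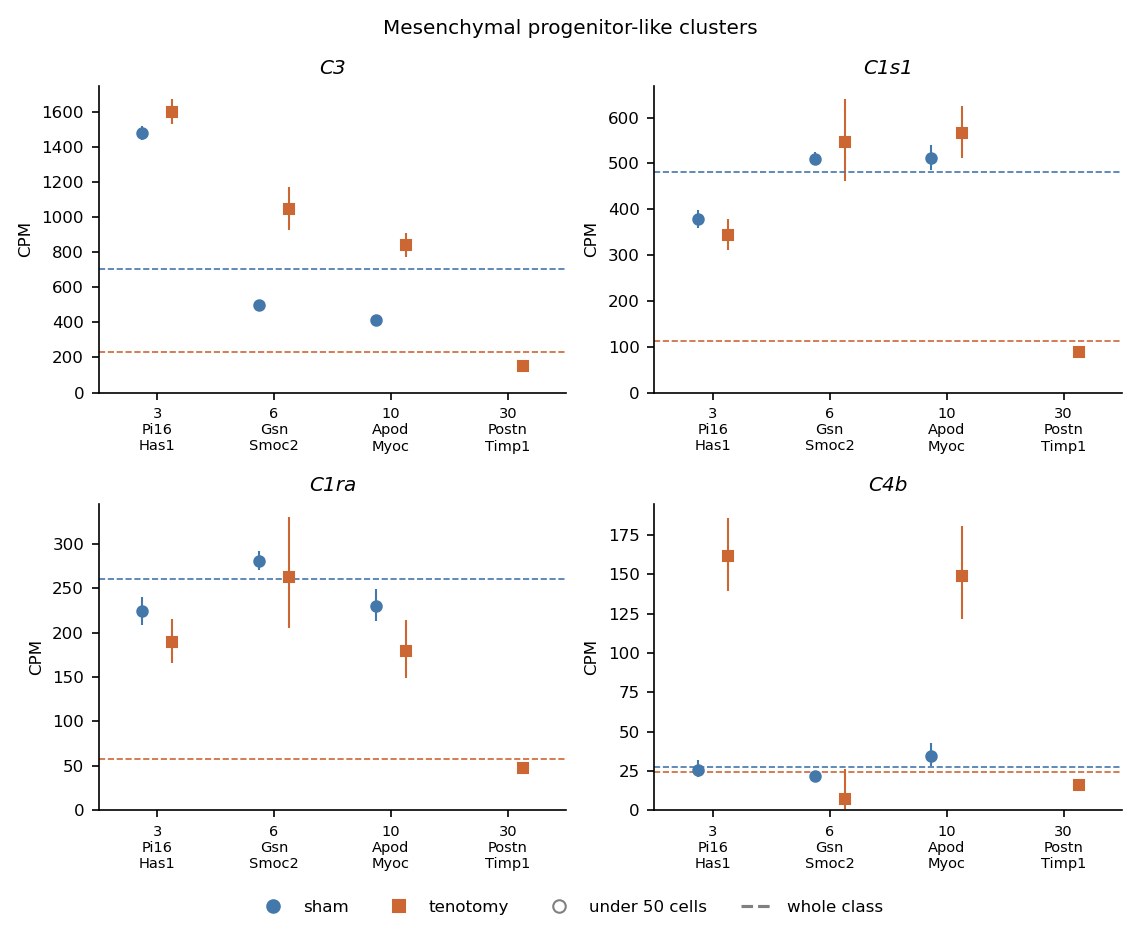
Level of C3, C1s1, C1ra and C4b (vertical axis, CPM) in the mesenchymal progenitor-like clusters, each with its number and leading genes, for sham (circles) and tenotomy (squares), with exact 95% Poisson intervals as lines and dashed lines at the level of the whole class. Cluster 30, drawn for tenotomy alone since it held 4 sham cells, has the lowest C3, C1s1 and C1ra, while C3 in clusters 6 and 10 is about 2-fold higher in tenotomy.

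Tenocyte-like cells, the fibroblasts of tendon, had higher C3 and C1s1 after tenotomy. C3 was at 247 CPM (231 to 264) in 363 sham cells and 583 CPM (547 to 621) in 208 tenotomy cells, 2.36-fold higher (2.15 to 2.59). C1s1 was at 41.1 and 94.7 CPM, 2.30-fold higher (1.83 to 2.91), and C1ra at 96.7 and 138 CPM, a ratio of 1.43 (1.20 to 1.69). After thinning, C3 was found in 13.6% and 25.6% of cells. Of 6 measured members 5 were higher, the others being C1qa, C1qb and C1qc at 5.32, 7.38 and 4.09-fold. Among all 3098 measured genes 6.42% were higher and 6.33% lower. In sham, C1qa, C1qb, C1qc and C1s1 were under the CPM limit for a measured gene, so they were counted through the tenotomy library alone. All 11 macrophage markers were higher in the same cells, at 402 and 1194 CPM summed with none at 0, and so were 9 of 10 neutrophil markers, at 25.5 and 319 CPM. Of the mesenchymal progenitor markers 8 of 11 were higher, although their sum was 80435 and 43087 CPM, and their median was 7.63% and 22.9% of the mesenchymal level. On that scale C3 was at 35.2% and 252% and C1s1 at 8.54% and 83.5%. Their part in the result was not tested. In sham, 19 tenocyte-like cells of cluster 9 had C1qa at 1244 CPM. For C3 and C1s1, the level in tenotomy macrophage-like cells was 39.8 and 2.31 CPM, below the tenocyte level. Other tenotomy cells were above it, with C3 at 1599 CPM in mesenchymal cluster 3 and C1s1 at 566 CPM in mesenchymal cluster 10. Neutrophil-like cells also carried C3. How far RNA of any of these cells added to the tenocyte values was not tested.

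Neutrophil-like cells had C3 at 452 CPM (392 to 519) in 58 sham cells and 415 CPM (386 to 445) in 651 tenotomy cells, a ratio of 0.92 (0.78 to 1.08). Their C5ar1, through which C5a attracts and activates neutrophils, was at 423 and 294 CPM, a ratio of 0.70 (0.59 to 0.83). These cells were divided by the same pair of genes. Cluster 31 had C3 at 585 CPM in sham against 514 CPM in tenotomy with C5ar1 at 247 and 203 CPM, and cluster 20 had C3 at 153 and 144 CPM with C5ar1 at 817 and 544 CPM. Of 10 measured complement genes 3 were higher, all of them C1q chains, against 7.32% higher and 1.91% lower of 2514 genes. C1qa rested on 1 sham UMI there and C1qc on 0. In the same cells 9 of 11 macrophage markers were higher, of which Fcgr1, Ms4a7, Mrc1 and Ccr2 were at 0 in sham, while their sum was 10392 and 8888 CPM. Erythroid markers were at 11.2 and 1809 CPM summed, with 5 of 6 higher. Their part in the result was not tested.

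Pericyte or smooth muscle-like cells, which surround vessels, held C1s1 at 276 CPM in sham against 246 CPM in tenotomy, a ratio of 0.89 (0.76 to 1.04). C1ra was at 37.1 and 34.6 CPM. C3 and C4b were near 0 in them, at 3.76 and 7.13 CPM and at 0.54 and 6.11 CPM. Schwann or other glial cell-like cells, of which 67 and 37 were too few for a comparison, had C4b at 123 CPM (89.2 to 165) in sham and 383 CPM (289 to 499) in tenotomy, from 44 and 55 UMIs, and 32.8% and 48.6% of the cells had a UMI.

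Ordered by level, mesenchymal and tenocyte-like cells exchanged places as the class with the highest level of C3. In sham the order was mesenchymal, neutrophil-like, tenocyte-like and macrophage-like cells, and in tenotomy tenocyte-like, neutrophil-like, mesenchymal and macrophage-like cells, with no overlap of the counting intervals of neighbours. Without cluster 30, tenotomy mesenchymal cells (1290 CPM) were above tenocyte-like cells (583 CPM), as in sham. By share of C3 UMIs, mesenchymal cells held the most in both libraries, 87.3% in sham and 69.8% in tenotomy. C1s1 was highest in mesenchymal cells in sham and in pericyte or smooth muscle-like cells in tenotomy, where mesenchymal (110 to 117 CPM) and tenocyte-like cells (80.5 to 111 CPM) overlapped. C1ra was highest in mesenchymal cells in sham and in tenocyte-like cells in tenotomy. Without cluster 30, tenotomy mesenchymal cells had C1s1 at 439 CPM, above the 246 CPM of pericyte or smooth muscle-like cells. Their C1ra was then at 195 CPM, above the 138 CPM of tenocyte-like cells, and both orders were as in sham. For C4b macrophage-like and glial cells had overlapping intervals at the top in sham, and glial cells were highest in tenotomy.

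The genes whose levels followed the members most closely were found over 16 profiles, the 8 classes in both libraries, from 4221 genes. The values are Pearson correlations of log levels, they describe points that share 2 libraries and a few classes, and they carry no test. The sum of the C1q chains was followed by Mrc1 (0.985), Pf4 (0.975), F13a1 (0.974), Ms4a6d (0.974) and Ms4a7 (0.973). C3 had looser company, in Mgst1 (0.887), Fgl2 (0.845), Stk26 (0.823), Ptgs2 (0.804) and Pi16 (0.802). C4b was followed by Naaa (0.902), Rab7b (0.887), Mmp19 (0.885), Ifi207 (0.878) and Rgs10 (0.874). The sum of C1s1 and C1ra was followed by Slit3 (0.963), Col6a3 (0.934), Fap (0.926), Naalad2 (0.924) and Cygb (0.924). Between members, C1qa correlated with C1qb at 0.994, with C3ar1 at 0.980, with C5ar1 at 0.615 and with C3 at 0.038, and C1s1 with C1ra at 0.824.

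The rest of the complement list, 53 genes with the members, had most of its measured genes within 2-fold in macrophage-like cells. Of 15 measured there, 2 were higher and 4 lower, where 6.56% of 3188 measured genes were higher and 7.31% lower. The median log2 ratio of the 15 was -0.31 against 0.11 for all measured genes. The higher ones were Cd93 (130 and 361 CPM, 2.78-fold), a membrane protein first described as a C1q receptor, and Cfb (25.8 and 58.0 CPM, 2.24-fold), factor B of the alternative pathway. Among the lower ones besides C4b were the collectin Colec12 (144 and 10.7 CPM) and the ficolin Fcna (137 and 42.8 CPM, 3.20-fold lower). Without cluster 13 the ratio of Fcna was 0.81.

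In the whole mesenchymal class the list was lower with 1 exception. Of 11 measured genes 0 were higher, 10 lower and 1 within 2-fold, where 16.1% of 3554 measured genes were higher and 16.2% lower. The median log2 ratio of the 11 was -1.99, against 0.09 for all measured genes. Besides the 3 members these included C7 (62.2 and 4.83 CPM, 12.9-fold lower), the soluble regulators Clu (9.72-fold lower) and Vtn (3.98-fold lower), and Cd55 (4.92-fold lower), which speeds the decay of convertases on the cell surface. Serping1, the C1 inhibitor that blocks C1r and C1s, was at 2063 and 627 CPM, 3.29-fold lower. Without cluster 30, Serping1 had a ratio of 1.16 and Cd55 of 1.32. Both regulators, like C1s1 and C1ra, were within 2-fold there, while C7 and Clu stayed lower. Inside each shared cluster, however, Cd55 was not higher in tenotomy. Its ratio was 0.77 in cluster 3 (644 and 499 CPM), 0.79 in cluster 6 (0.52 to 1.16) and 0.53 in cluster 10. Cluster 3, with the most Cd55, held 341 sham and 170 tenotomy cells, a larger part of the remaining tenotomy cells.

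Muscle stem cell-like cells held few complement genes, and the 4 measured ones were all lower in tenotomy, where 27.9% of 3495 measured genes were higher and 17.7% lower. Among them were the soluble regulator Vtn (9.25-fold lower), Serping1 (3.83-fold) and Colec12 (2.81-fold). Of these cells, cluster 16 held 511 sham and 115 tenotomy cells and cluster 22, led by Ttn, Des and Myog, held 6 and 409. Over the class 6 of 8 myofibre markers were higher in tenotomy and 2 lower, at 65.6 and 1915 CPM summed. Their part in the result was not tested. Inside cluster 16 none of the 3 was lower: Vtn was at 72.2 and 79.8 CPM, Serping1 at 406 and 675 CPM, and Colec12 at 56.7 and 57.3 CPM. In blood endothelial cell-like cells 1 of 4 measured genes was higher, Clu at 3.63-fold, where 5.95% of 3428 genes were higher and 6.62% lower. Most sham endothelial cells lay in cluster 0 (2336 and 132 cells) and most tenotomy ones in cluster 12 (84 and 1096 cells), and inside cluster 12 Clu was lower in tenotomy, at 459 and 107 CPM, a ratio of 0.23 (0.20 to 0.28). Cluster 4 had it at 26.6 and 14.6 CPM from 26 and 5 UMIs. Their Cd93 was at 849 CPM in sham against 1192 CPM in tenotomy. Myofibre-like cells, 51 in sham and 72 in tenotomy, had Clu 7.45-fold higher, from 13 and 65 UMIs, against 14.1% higher and 12.4% lower of 913 genes. Beside it 8 of 9 pericyte or smooth muscle markers were higher (40.6 and 682 CPM summed), 8 of 11 macrophage markers were higher (132 and 841 CPM), and 10 of 11 mesenchymal markers were lower (2500 and 371 CPM). Their part in the result was not tested. Pericyte or smooth muscle-like cells had 1 higher gene of 6 measured, where 4.86% of 3577 genes were higher and 5.76% lower.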

How the data were processed

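The deposited values were whole-number UMI counts per gene and cell barcode, not normalized by the authors. The submitters' processing notes name Cell Ranger 4.0.0 and mm10 but no annotation release. Positions came from GENCODE M21 on mm10. Cells needed at least 300 genes, 500 UMIs and at most 10% mitochondrial UMIs. Doublets were removed with the scrublet method of scanpy 1.11.5, at the tenotomy library's automatic threshold of 0.212 in both libraries (190 sham and 320 tenotomy cells), since the sham library's own threshold called 1 cell. Leiden clustering used 3093 variable genes without the 53 complement genes, so members could not shape the clusters. Classes were named here from fixed marker lists, not by the authors, and the numerical limits for a name were set after cluster scores were seen. UMIs were summed per class and library. Poisson, Clopper-Pearson and conditional binomial intervals were exact, computed with scipy 1.17.1, and the calls were tested on simulated data. Named were all members, their near copies, and in each class up to 8 list genes per direction with the highest list gene of each role, plus the 5 genes most like each member group by correlation; other names were chosen after their values were seen. Some genes of the lists are counted but not reported here by name. The members and lists were chosen with earlier results of these data known. Alternatives covered filters, doublets, clustering, naming and scaling.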

Additional observations from a re-analysis of the deposited data

Results flagged for a closer look

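C3 moved in opposite directions in 2 kinds of fibroblast. Its log2 ratio of tenotomy over sham was 1.24 in tenocyte-like cells and -1.60 in mesenchymal progenitor-like cells. C1s1 did the same, at 1.20 and -2.09. These ratios are from CPM over the class. Per cell, as a mean over cells of CPM and after thinning, the lower C3 of mesenchymal cells did not pass 2-fold. With 1 library per group the difference between the classes was not tested. Without mesenchymal cluster 30 the log2 ratio of C3 was 0.89 in mesenchymal cells, on the same side as in tenocyte-like cells. That of C1s1 was then -0.13. Inside the clusters present in both libraries the ratio of C3 was 1.08 in cluster 3, 2.03 in cluster 10 and 2.10 in cluster 6.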

How the results depend on the processing

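Each of 9 ratios and 8 summaries was recomputed under the alternatives. Of the summaries 52 recomputed values stayed near the reported one and 36 did not. Of the ratios 51 recomputed values stayed near the reported one, 63 moved away and 3 counted as reversed. The settings without cluster 30 or 13 and UMIs per cell were added after seeing the data. No paired analysis was possible because each group is 1 library and no test was made. In mesenchymal cells the count of higher genes, 0, became 11 with a minimum of 25 UMIs alone and 3 without cluster 30, and the count of lower genes, 10, became 5 per cell and 2 without cluster 30. In macrophage-like cells the count of higher genes, 2, became 1 with libraries clustered apart, as a mean over cells of CPM, after thinning and per cell, and the count of lower genes, 4, became 2 without doublet removal and 1 without cluster 13. The macrophage share of C1q UMIs in sham, 69.4%, was 70.2% at a mitochondrial limit of 20%, 15.01% without doublet removal, 71.1% with complement genes in the clustering, 77.9% at resolution 0.5, 82.3% with libraries apart, 75.6% by marker UMIs and 70.5% with each cluster given its best class. In tenotomy, 94.3% became 94.1%, 89.7%, 94.6%, 95.1%, 92.6% and 95.8% under the first 6 of these in order, and 94.1% at resolution 2. The mesenchymal share of stromal UMIs in sham, 85.8%, was 84.6% with the mitochondrial limit, 80.2% without doublet removal, 86.9% and 84.7% at resolutions 0.5 and 2, 86.6% apart, 87.3% by marker UMIs and 88.9% by best class. In tenotomy, 71.9% became 71.2%, 64.5%, 70.5%, 66.3% and 69.3% (limit, doublets, resolutions 0.5 and 2, marker UMIs). Without doublet removal 69 sham cells were macrophage-like. The log2 ratio of C3 in mesenchymal cells was 0.89 without cluster 30 in place of -1.60, and that of C4b in macrophage-like cells was 0.53 without doublet removal and 0.68 without cluster 13 in place of -2.12. C1s1 and C1ra were lower in mesenchymal cells, and C5ar1 in macrophage-like cells, under all alternatives run, at -2.17 to -0.13, -2.26 to -0.41 and -0.63 to -0.07. C1qa, C1qb, C1qc and C3ar1 took both signs, within -0.96 to 0.57. Where no value shows the cause, the cause was not tested.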

Other observations

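Neutrophil-like cells had the ficolin gene Fcnb at 409 CPM in sham against 429 CPM in tenotomy, and Itgam, a subunit of complement receptor 3, at 562 and 411 CPM. On the list, 13 genes had fewer than 25 UMIs over both libraries, among them Hc, the gene of C5, and the terminal genes C6, C8a, C8b and C9.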
